A study of Mus musculus with 7 samples.

Results

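T cell receptor gene segments are the variable (V), diversity (D), joining (J) and constant (C) pieces from which each T cell builds its antigen receptor. They were taken here as every row of the deposited gene table whose biotype was a T cell receptor V, D, J or C gene, which gave 226 of the 54532 genes in the table. Of these, 144 were V, 70 J, 8 C and 4 D segments. By the prefix of the gene name, 160 belonged to the alpha locus (Tra), 39 to the beta locus (Trb), 15 to the gamma locus (Trg, in part written Tcrg in the table) and 10 to the delta locus (Trd). The other 2, B230359F08Rik and C920008G01Rik, have a V segment biotype but no locus prefix and lie on chromosome 14.

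The study compared spleen cells labelled sorted follicular helper T (Tfh) cells, a CD4 lineage that supports antibody responses in lymphoid follicles, from mice with and without a deletion of Mst1, a kinase of the Hippo pathway whose gene symbol is Stk4. The 4 KO libraries carry the genotype label Mst1 knockout and the title Mst1∆CD4, a notation usual for conditional deletion through a Cd4-driven recombinase. The 3 WT libraries carry the genotype label WT. All animals of both groups had been sensitised with ovalbumin (OVA) by intraperitoneal injection, and the labels call the libraries biological replicates. The labels name neither the recombinase line nor the strain, age or number of animals per library.

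In most T cells the receptor is a pair of alpha and beta chains, and a smaller lineage pairs a gamma with a delta chain. Recombination joins a V segment to a J segment, with a D segment between them in beta and delta chains, and splicing then attaches the C exons. The delta locus lies within the alpha locus, so that a V to J joint in the alpha locus deletes it from that chromosome. The receptor chains reach the cell surface only together with the invariant CD3 proteins, which carry the signal into the cell.

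The libraries held between 16789158 and 18375275 counts. Stk4, the targeted gene, had 287, 295, 301 and 286 CPM (counts adjusted for library size by TMM) in KO replicates 1 to 4, against 327, 316 and 336 CPM in WT replicates 1 to 3. All KO values were below all WT values, but the log2 fold change was -0.16 with a standard error (SE) of 0.08 and did not pass the threshold (edgeR adjusted p = 0.225), so the gene total gives little check of the genotype labels. The labels do not name the deleted exons, and a count over the whole gene checks only the part that was deleted if that part holds most of the reads. The total also takes in reads from any cells in which the gene was not deleted, and their part was not tested. Groups are therefore named by their labels, and every direction below is that of libraries labelled KO against libraries labelled WT. Of the Tfh markers, Bcl6 averaged 59.6 ± 2.47 CPM in KO libraries and 115 ± 28.3 CPM in WT libraries, and Il21 averaged 0.297 ± 0.185 CPM in KO libraries and 3.47 ± 0.66 CPM in WT libraries (SD, n = 4 and 3). No marker checked was at 0, but genes of other cell types were abundant: the summed level of 5 neutrophil and monocyte genes was 11230 to 17530 CPM in KO libraries and 13630 to 17910 CPM in WT libraries, where that of 4 CD3 genes was 26.4 to 70.02 CPM in KO libraries and 129 to 218 CPM in WT libraries. In such bulk samples, fewer T cells and less receptor RNA per T cell cannot be told apart.

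The segments of the D-J-C part of the beta locus carry the differences between segment classes described below, so their sequences are given first, from GENCODE M21 on GRCm38, plus strand, 5′ to 3′. On chromosome 6 this part holds 2 consecutive blocks. The first runs from Trbd1 through the Trbj1 segments to Trbc1, and the second from Trbd2 through the Trbj2 segments to Trbc2. The D segments are Trbd1 at chr6:41533201-41533212 and Trbd2 at chr6:41542163-41542176.
Trbd1: gggacagggggc
Trbd2: gggactgggggggc
The J segments shown are Trbj1-1 at chr6:41533864-41533911 and Trbj1-5 at chr6:41535084-41535133 from the first block, and Trbj2-1 at chr6:41542754-41542803 and Trbj2-7 at chr6:41543810-41543856 from the second. Capitals mark the stretch that matches TTNGGNNNNGGN, searched on the coding strand alone in any frame.
Trbj1-1: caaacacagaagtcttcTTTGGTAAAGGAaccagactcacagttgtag
Trbj1-5: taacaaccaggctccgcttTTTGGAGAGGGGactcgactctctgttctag
Trbj2-1: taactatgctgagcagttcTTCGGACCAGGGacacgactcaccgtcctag
Trbj2-7: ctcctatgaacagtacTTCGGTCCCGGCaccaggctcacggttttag
That stretch was present in 11 of 13 Trbj, 44 of 51 Traj, 2 of 2 Trdj and 0 of 4 Trgj segments, and in 8 of 142 V segments. These are the codons of the phenylalanine-glycine turn by which J segments are known.

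The beta constant genes are near-identical copies, which bears on how well their counts can be separated. Their first 259 bases are the same, and the first difference is at position 260, counted from 1 at the 5′ end of the annotated transcript. The stretch from position 361 to 430 is shown because it holds 8 of the differences, in capitals, from G383A, T386C and C389T to C422A (the Trbc1 base first).
Trbc1: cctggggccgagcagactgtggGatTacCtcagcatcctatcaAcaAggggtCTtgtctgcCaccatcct
Trbc2: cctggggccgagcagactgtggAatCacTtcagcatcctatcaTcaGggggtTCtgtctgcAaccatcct
Windows of 50 bases found in both genes made up 41.1% of the windows of Trbc1 and 44.0% of those of Trbc2. The treatment of reads that match both genes is not given in the sources used here, so the split between Trbc1 and Trbc2 is uncertain. Over their first 259 bases alone, the gamma constant genes Tcrg-C1 and Tcrg-C2 match at 252, and Tcrg-C1 and Tcrg-C4 at 215. Over the whole transcripts, 29.6% of the windows of Tcrg-C1 and 25.4% of those of Tcrg-C2 were shared with another gamma constant gene. Tcrg-C4 shared 0 of its 936 windows. Among alpha V segments, which were copied in blocks during mouse evolution, 99 of 108 shared a window of 50 bases with another V segment and 35 had no window of their own. By contrast, 2 of 22 Trbv segments shared a window, so beta V counts are less open to such mixing, and alpha V counts are read only as sums. No Traj segment shared a window, but each holds only 6 to 17 windows, which says little of how alpha J reads were assigned. Only the segments themselves were compared with one another. Exons of Trbv4 and Trbv5 also overlap those of 5830405F06Rik, a noncoding gene on the same strand.

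Counts per segment were low. Over the 7 libraries, 29 segments had no count, 72 had 1 to 9, 101 had 10 to 99 and 24 had at least 100. A count of 0 in a library allows up to 3 counts, which is 0.163 to 0.176 CPM before TMM scaling in KO libraries and 0.171 to 0.179 CPM in WT libraries. All segments together held 1989, 1539, 1602 and 1083 counts in KO libraries, against 6794, 4681 and 4014 counts in WT libraries. Every KO library was thus below every WT library in this total, at similar library sizes.

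By locus, alpha and beta segments were lower in KO libraries, and gamma and delta segments overlapped between the groups, with libraries scaled by TMM (values relative to the CD3 genes are given further on). The alpha sum was 28.9, 21.9, 25.7 and 15.4 CPM in KO libraries, against 127, 86.3 and 74.7 CPM in WT libraries. For the beta locus the sum was 75.2, 50.01, 50.3 and 34.7 CPM in KO libraries, against 267, 176 and 142 CPM in WT libraries. Neither locus had a KO library within the WT range, and the log2 ratio of group means was -2.06 for alpha and -1.89 for beta.
The gamma sum was 9.33, 10.1, 8.23 and 7.27 CPM in KO libraries, against 12.3, 5.86 and 6.04 CPM in WT libraries. The delta sum was 3.96, 3.50, 4.72 and 3.08 CPM in KO libraries, against 7.19, 3.13 and 3.73 CPM in WT libraries. In both loci WT replicate 1 was the highest of all libraries, the KO values overlapped the WT values, and the log2 ratio of group means was 0.11 for gamma and -0.30 for delta. Without WT replicate 1 these ratios were 0.55 for gamma and 0.15 for delta. The delta sum is mostly the constant gene Trdc, with 412 counts over all libraries. The 5 Trdv segments alone summed to 0.590, 0.722, 0.556 and 0.224 CPM in KO libraries, against 1.10, 0.696 and 1.02 CPM in WT libraries. Their log2 ratio was -0.84, with overlap, from 37 KO and 48 WT counts. A sum over a locus is a description, and no test was made of it.

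**Figure D1:**
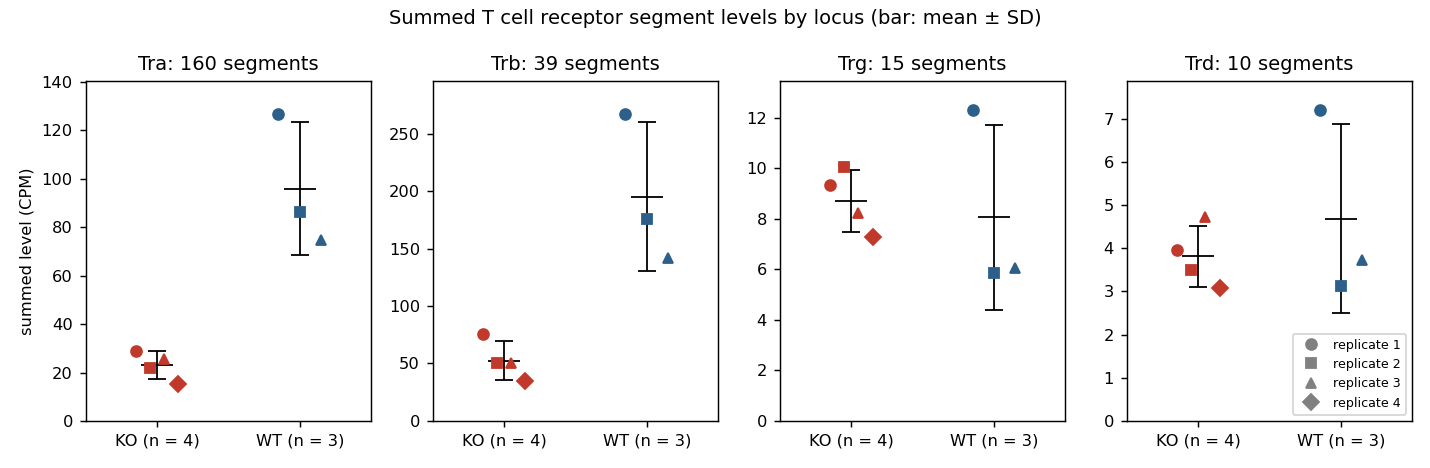
Summed level of all segments of each T cell receptor locus in TMM-scaled CPM (y axis, each panel with its own scale from 0) in KO libraries (left, n = 4) and WT libraries (right, n = 3). Points are libraries, with a symbol per replicate number, and bars are the mean ± SD: KO points lie below all WT points in the alpha panel (15.4 to 28.9 against 74.7 to 127 CPM) and the beta panel, and within the WT range in the delta panel apart from KO replicate 4 at 3.08 CPM.

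The comparison of single segments was fitted over all 15795 genes with enough counts, and 34 of the 226 segments were among them. A segment counted as changed at an adjusted p under 0.05 in edgeR's quasi-likelihood test with Benjamini-Hochberg adjustment. Of the 34, 18 were lower in KO libraries and 0 higher, where 6.83% of all genes tested were lower and 8.71% higher. At an unadjusted p under 0.05, for which no share of all genes is given, 26 were lower and 0 higher. At an adjusted p under 0.05, DESeq2 and limma-voom also called 0 higher, while limma-voom had 1 higher at an unadjusted p under 0.05. The median log2 fold change was -1.73 over the 34 segments and -0.002 over all genes tested. All KO libraries lay below all WT libraries for 21 of the 34 (14.7% of all genes), and all lay above for 0 (15.4% of all genes). Leaving out WT replicate 1, the WT library richest in T cell receptor counts, reduced the lower calls to 7, where 2.96% of all genes were lower.

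**Figure D2:**
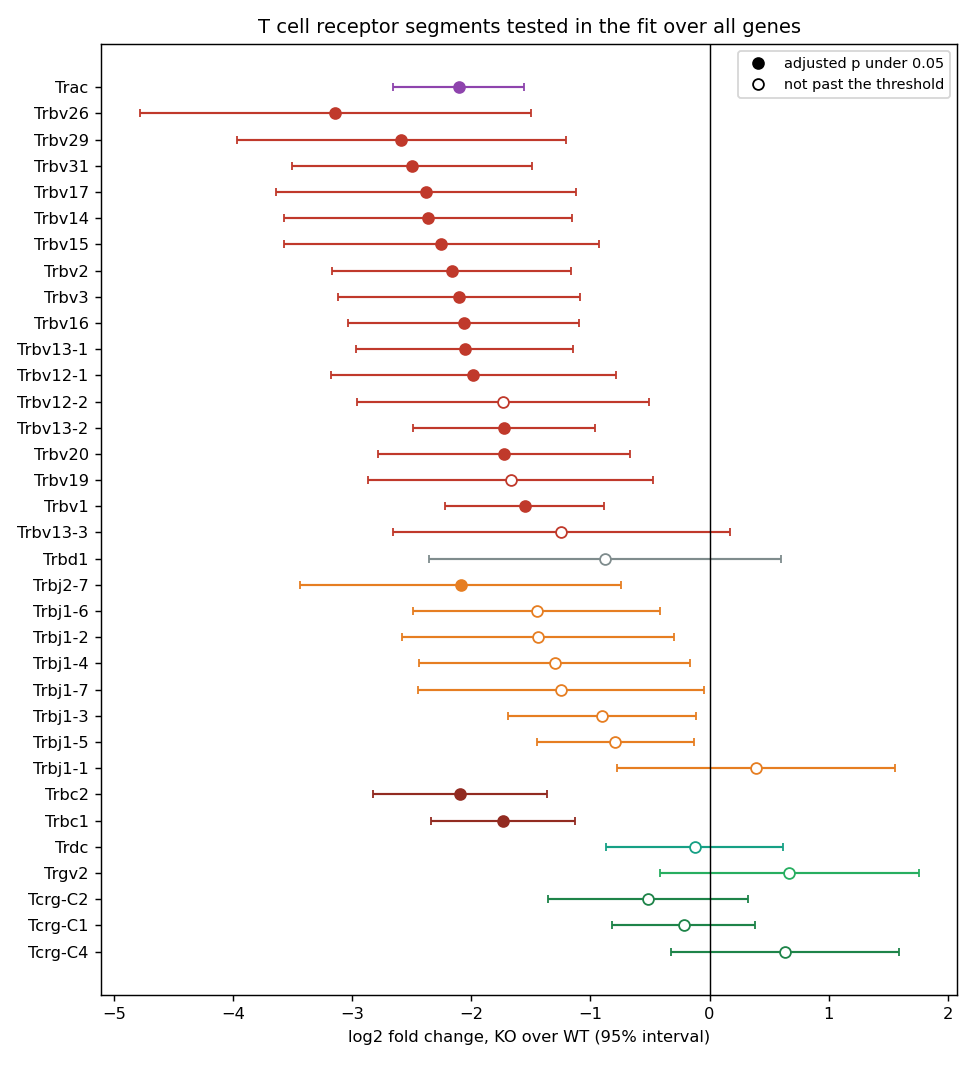
Log2 fold change, KO over WT, with its 95% interval (x axis) for the 34 segments tested, grouped by class from top to bottom and coloured by class. Filled points passed an adjusted p of 0.05: they are Trac, 14 of 17 Trbv segments, Trbj2-7, Trbc1 and Trbc2, while Trbd1, the Trbj1 segments, Trdc and the gamma segments are open. With libraries scaled to their CD3 genes, 0 of the 34 were lower.

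The constant genes, which every mature transcript of their locus carries, hold most of the counts. Trac, the only alpha constant gene (chr14:54220521-54224206), had 20.6, 14.1, 19.1 and 11.1 CPM in KO libraries, against 88.1, 68.5 and 52.8 CPM in WT libraries. It fell 4.30-fold, a log2 fold change of -2.11 with an SE of 0.24 (edgeR adjusted p = 0.00171). The lowest WT value was more than the highest KO value, so the groups did not overlap.
Trbc1 (chr6:41538218-41539881) had 21.8, 16.3, 14.2 and 9.62 CPM in KO libraries, against 63.4, 51.7 and 39.5 CPM in WT libraries. Trbc2 (chr6:41546730-41548352) had 32.1, 18.6, 19.1 and 14.6 CPM in KO libraries, against 124, 83.0 and 62.7 CPM in WT libraries. In both genes KO replicate 4 was the lowest library and WT replicate 1 the highest. Trbc1 fell 3.33-fold (log2 fold change -1.73, SE 0.27, edgeR adjusted p = 0.00537) and Trbc2 fell 4.27-fold (log2 fold change -2.09, SE 0.31, edgeR adjusted p = 0.00611). Each of the 3 genes kept an adjusted p under 0.05 when any library was left out.

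Trbc1 made up 40.5, 46.8, 42.6 and 39.7% of the Trbc1 and Trbc2 counts in KO libraries, against 33.7, 38.4 and 38.6% in WT libraries. The exact binomial 95% interval was 35.1 to 44.5% in the lowest KO library and 36.4 to 40.9% in the highest WT library. The share averaged 42.4 ± 3.19% in KO libraries and 36.9 ± 2.75% in WT libraries (SD, n = 4 and 3). The groups did not overlap, but the difference did not pass a two-sided exact permutation test (p = 0.0571, and 0.143 adjusted over 5 ratios).

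Among beta V segments, 17 of 22 had enough counts to test and 14 fell in KO libraries. The median log2 fold change over the 17 was -2.07, and 0.04 with libraries scaled to CD3 genes. Trbv13-2, which encodes the mouse Vbeta8.2 region, had the highest count of them. It had 2.12, 1.28, 1.94 and 0.839 CPM in KO libraries, against 6.58, 4.99 and 3.84 CPM in WT libraries. Its log2 fold change was -1.73 (SE 0.34, edgeR adjusted p = 0.0118), and the groups did not overlap.
Trbv31, the only Trbv segment placed downstream of Trbc2, had 0.295, 0.445, 0.222 and 0.168 CPM in KO libraries, against 2.44, 1.33 and 1.13 CPM in WT libraries. Its log2 fold change of -2.50 (SE 0.45, edgeR adjusted p = 0.00807) was among the 4 V segments still called without WT replicate 1, beside Trbv1, Trbv13-1 and Trbv13-2. Trbv1, the segment at the other end of the array, had 1.36, 1.17, 1.00 and 0.839 CPM in KO libraries, against 3.96, 3.48 and 2.203 CPM in WT libraries. That is a log2 fold change of -1.55 (SE 0.30, edgeR adjusted p = 0.0104), the smallest fall among the V segments that passed.
The lowest log2 fold change was that of Trbv26, with 1, 5, 4 and 0 counts in KO libraries, against 37, 16 and 13 counts in WT libraries. It was -3.14 with an SE of 0.73 (edgeR adjusted p = 0.0216), with a 95% interval of -4.78 to -1.50. The segments that did not pass were Trbv12-2, Trbv19 and Trbv13-3, with log2 fold changes of -1.73, -1.67 and -1.24 and edgeR adjusted p-values of 0.061, 0.0627 and 0.211. Trbv13-2 and Trbv13-3 share a window of 50 bases, so a few reads could be assigned to either.

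Relative usage of the beta V segments overlapped between the groups, although their summed level did not. As a share of all Trbv counts, Trbv13-2 held 15.3 ± 3.19% in KO libraries and 13.4 ± 2.31% in WT libraries (SD, n = 4 and 3). Its exact binomial 95% interval ran from 14.3 to 26.7% in KO replicate 3, the highest library, and from 9.14 to 13.2% in WT replicate 1, the lowest. Trbv1 held 11.3 ± 1.76% in KO libraries and 8.43 ± 2.22% in WT libraries, and Trbv26 held 1.40 ± 1.42% in KO libraries and 3.09 ± 0.62% in WT libraries. No Trbv segment had a share that separated the groups. The inverse Simpson index, the number of equally used segments that would give the same evenness, was 13.1, 13.1, 11.4 and 12.9 in KO libraries, against 14.8, 12.9 and 14.1 in WT libraries. Drawn down to 114 counts per library, 17.3 ± 0.46 segments were expected in KO libraries and 18.4 ± 0.19 in WT libraries, and these ranges did not overlap.

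**Figure D3:**
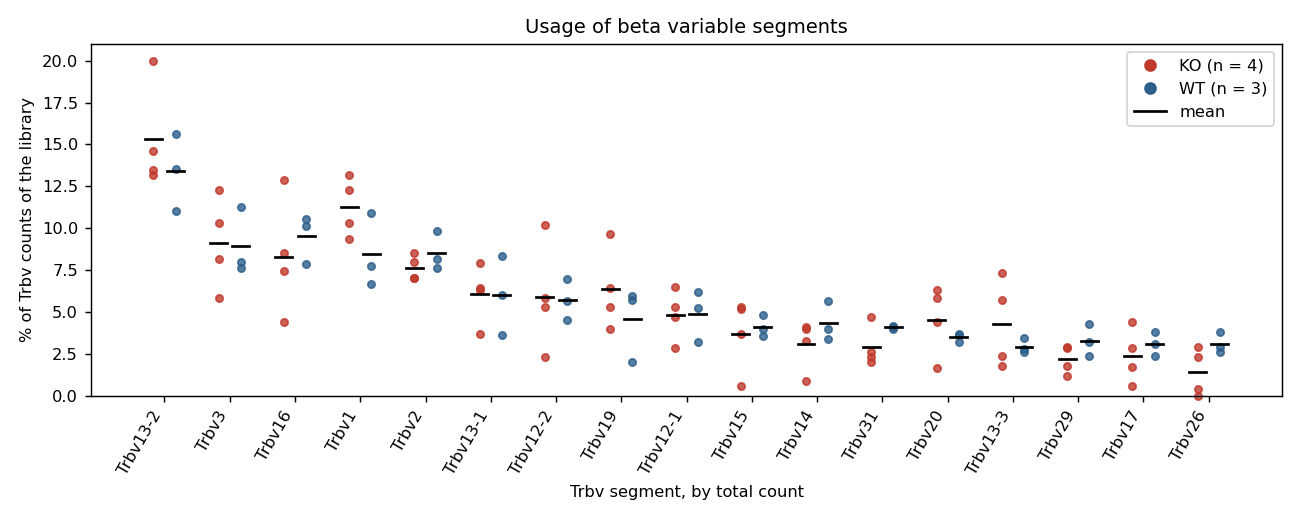
Share of the Trbv counts of a library held by each of the 17 Trbv segments tested (y axis, percent; x axis, segments by falling total count), with KO libraries (n = 4) left of WT libraries (n = 3). Points are libraries and black lines group means: Trbv13-2 leads in mean share in both groups (15.3% in KO libraries and 13.4% in WT libraries), and KO and WT points overlap for each segment.

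Beta D and J segments moved less evenly than V and C segments. The 7 segments of the Trbj1 cluster, in the first block, summed to 5.08, 4.00, 5.39 and 3.24 CPM in KO libraries, against 12.4, 5.62 and 8.36 CPM in WT libraries, a log2 ratio of group means of -0.99. The 6 segments of the Trbj2 cluster summed to 1.12, 1.22, 1.28 and 0.392 CPM in KO libraries, against 5.60, 3.19 and 2.88 CPM in WT libraries, a ratio of -1.96. The Trbj2 value was close to that of the V segments (-1.995) and the C genes (-1.95), and the Trbj1 value was not, and in neither cluster did the groups overlap.
Of the Trbj segments tested, 1 of 8 passed, Trbj2-7 of the second block. It had 6, 3, 13 and 1 counts in KO libraries, against 30, 18 and 24 counts in WT libraries (log2 fold change -2.09, SE 0.60, edgeR adjusted p = 0.0443). This call was lost when any of 6 of the 7 libraries was left out, KO replicate 3 being the exception. None of the 7 Trbj1 segments passed in edgeR, and their median log2 fold change was -1.24. Of these segments, 6 were lower at an unadjusted p under 0.05, and 3 passed in limma-voom and 0 in DESeq2. No share of all genes is given for those counts.
Trbj1-5, with the highest count of that cluster, had 0.945, 1.00, 1.39 and 0.895 CPM in KO libraries, against 2.25, 1.62 and 1.64 CPM in WT libraries (log2 fold change -0.79, SE 0.29, edgeR adjusted p = 0.0978). Trbj1-1, the segment next to Trbd1, had 1.12, 0.278, 0.667 and 0.727 CPM in KO libraries, against 0.792, 0.348 and 0.452 CPM in WT libraries. Its log2 fold change of 0.39 (SE 0.52, edgeR adjusted p = 0.646) was the only positive value among the beta segments tested, and the groups overlapped. Trbd1 itself, the 12-base segment shown above, had 10, 7, 9 and 8 counts in KO libraries, against 31, 11 and 3 counts in WT libraries (log2 fold change -0.88, SE 0.65, edgeR adjusted p = 0.40). The WT counts of Trbd1 were spread over the whole range, and Trbd2 had 3 counts in all KO libraries together and 4 in all WT libraries together.

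Within the joining segments, the share of the Trbj1 cluster was higher in each KO library than in each WT library, and no test was made of it. The Trbj1 cluster held 81.9, 76.6, 80.8 and 89.2% of Trbj counts in KO libraries, against 68.8, 63.8 and 74.4% in WT libraries. The exact binomial 95% interval was 66.7 to 84.7% in the lowest KO library and 67.7 to 80.3% in the highest WT library, so the gap between these 2 was within counting error. Without Trbj1-1, an alternative added after the data were seen, the share was 77.9, 75.3, 78.7 and 86.5% in KO libraries, against 67.4, 62.3 and 73.3% in WT libraries. The groups did not overlap with or without that segment.
Set against V counts, Trbj1 segments had 34.96 to 55.4 counts per 100 Trbv counts in KO libraries and 17.6 to 29.4 in WT libraries. Trbd1 had 4.07 to 7.02 counts per 100 Trbv counts in KO libraries and 0.596 to 3.17 in WT libraries. Trbj2 segments had 9.97 ± 3.57 per 100 Trbv counts in KO libraries and 9.85 ± 0.39 in WT libraries, with overlap. The first 2 of these ratios were higher in each KO library than in each WT library, and no test was made of them.

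**Figure D4:**
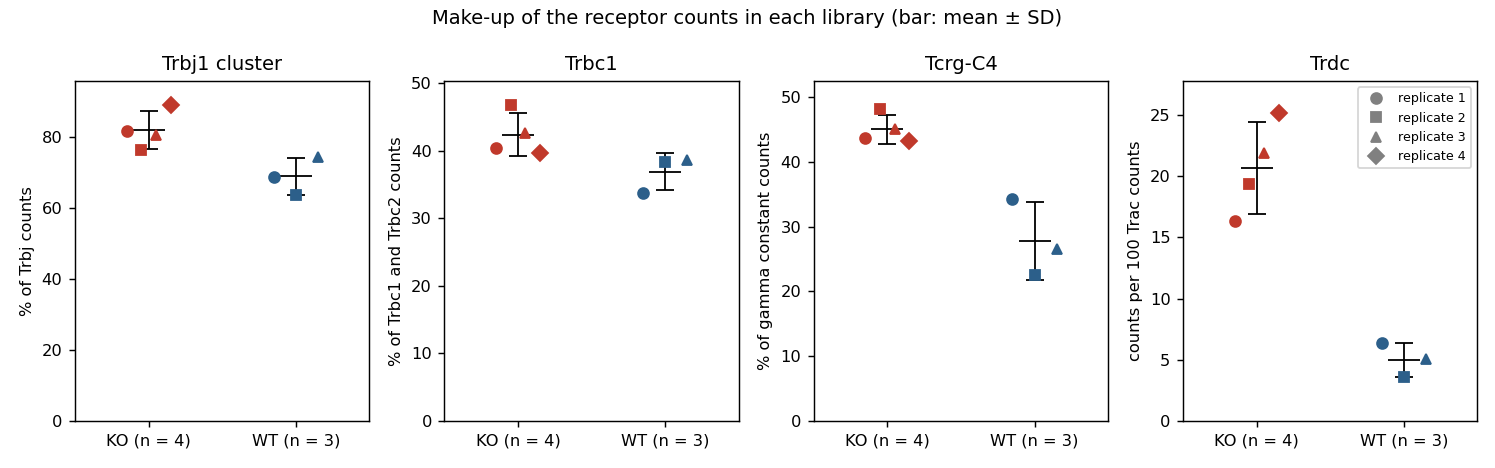
Make-up of the receptor counts in KO libraries (left, n = 4) and WT libraries (right, n = 3). The panels show, from left to right, the Trbj1 cluster as a percent of Trbj counts, Trbc1 as a percent of Trbc1 and Trbc2 counts, Tcrg-C4 as a percent of gamma constant counts and Trdc counts per 100 Trac counts, with axes from 0, points for libraries and bars for the mean ± SD. In each panel all KO points lie above all WT points, by the widest margin for Trdc (16.3 to 25.1 against 3.55 to 6.36). All panels are of quantities that separated the groups, whereas many other shares and ratios computed overlapped.

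Alpha V and J segments were counted so thinly that none entered the fit, and they are given as sums. The 108 Trav segments summed to 4.96, 5.83, 4.11 and 2.74 CPM in KO libraries, against 26.3, 12.1 and 12.4 CPM in WT libraries, a log2 ratio of -1.94. The 51 Traj segments summed to 3.36, 2.00, 2.56 and 1.51 CPM in KO libraries, against 12.5, 5.68 and 9.49 CPM in WT libraries, a log2 ratio of -1.97. Both ratios were close to that of Trac, and no KO library reached the WT range. In a fit with no filter on low counts, 9 Trav and 3 Traj segments were lower and none higher, within 33 lower of 197 segments tested (3.79% of all genes with a count).
Trav7-4, the alpha V segment given the highest count, had 5, 2, 4 and 0 counts in KO libraries, against 25, 19 and 6 counts in WT libraries, but shares 75.1% of its windows with other alpha V segments, so its own level is uncertain. Of the segments of invariant receptors, Trav11 and Trav11d, the V segments of natural killer T cells, had 0 counts in every library. These copies share 293 windows of 50 bases, all those of Trav11d and all but 1 of the 294 of Trav11, so if reads that match both were dropped the 0 says nothing of their level, and no limit is drawn from it. Traj18, the J segment of the same receptor, had 1, 0, 0 and 2 counts in KO libraries, against 8, 2 and 5 counts in WT libraries. Trav1 and Traj33, which form the receptor of mucosal-associated invariant T cells, had 4 counts each over all libraries. With reads assigned to copies as deposited, the number of Trav segments with a count was 27 to 43 in KO libraries and 54 to 70 in WT libraries, but drawn down to 49 counts it was 29.8 ± 2.06 in KO libraries and 31.0 ± 1.01 in WT libraries, so the difference in number was no longer seen at equal depth.

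Along the alpha locus, joining segments near Trac had more counts than distant ones in both groups. The 21 segments from Traj1 to Traj25 held 68.8 ± 5.18% of Traj counts in KO libraries and 75.2 ± 3.32% in WT libraries (SD, n = 4 and 3), with overlap. Their log2 ratio of summed levels was -2.08, and that of the 30 segments from Traj26 upward was -1.69. Traj2, the Traj segment with the highest mean over all libraries, averaged 0.145 ± 0.195 CPM in KO libraries and 0.562 ± 0.15 CPM in WT libraries. No test was made of level against distance.

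**Figure D5:**
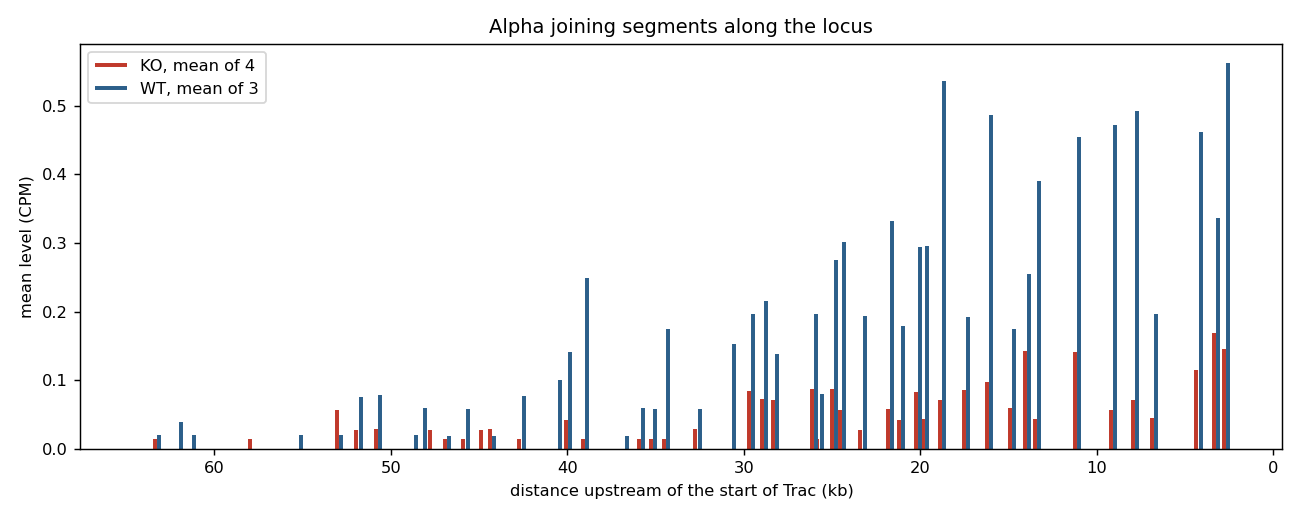
Mean level in CPM (y axis) of each alpha joining segment by its distance upstream of the start of Trac in kb (x axis, Trac at the right), with KO libraries (mean of 4) drawn left of WT libraries (mean of 3). Bars are higher near Trac in both groups, with the highest mean at Traj3 in KO libraries (0.169 CPM) and at Traj2 in WT libraries (0.562 CPM), and error bars are left out because most segments have few counts.

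No gamma or delta constant gene passed the test in either direction (0 also at an unadjusted p under 0.05 in edgeR, and 0 adjusted calls in DESeq2 and limma-voom). At an unadjusted p under 0.05 limma-voom had 1 higher, Tcrg-C4, with a log2 fold change of 0.95 (limma-voom adjusted p = 0.105). Trdc (chr14:54142851-54148868), the delta constant gene, had 3.37, 2.72, 4.17 and 2.80 CPM in KO libraries, against 5.60, 2.44 and 2.66 CPM in WT libraries. Its log2 fold change was -0.12 (SE 0.33, 95% interval -0.87 to 0.62, edgeR adjusted p = 0.828), and it turned to 0.36 without WT replicate 1 and to 0.01 with a replicate block. Its exons overlap those of Trdv5 and of the antisense gene Gm43434 on the other strand, and use of strand in counting is not given in the sources used here.
Tcrg-C4 (chr13:19344558-19352756) had 3.31, 3.72, 2.56 and 2.29 CPM in KO libraries, against 3.47, 1.04 and 1.24 CPM in WT libraries. WT replicate 1 stood within the KO range and the other 2 WT libraries below it. The log2 fold change was 0.63 (SE 0.42, 95% interval -0.32 to 1.59, edgeR adjusted p = 0.347), and without WT replicate 1 it was 1.37 and passed (edgeR adjusted p = 0.0451, where 5.24% of all genes were higher).
Tcrg-C1 had 2.01, 1.89, 1.78 and 1.45 CPM in KO libraries, against 2.68, 1.74 and 1.81 CPM in WT libraries (log2 fold change -0.22, SE 0.27, edgeR adjusted p = 0.619). Tcrg-C2 had 2.18, 1.78, 1.28 and 1.57 CPM in KO libraries, against 3.96, 1.85 and 1.53 CPM in WT libraries (log2 fold change -0.52, SE 0.37, edgeR adjusted p = 0.38). Both overlapped between groups, and counts from the stretches these genes share may be split unevenly between them. Tcrg-C3 had 8 counts in all KO libraries together and 2 in all WT libraries together.

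Upstream of Tcrg-C4 on chromosome 13 lie Trgj4, Tcrg-V1 and, on the strand of Tcrg-C2, Trgv2. Trgv2 had 14, 12, 21 and 13 counts in KO libraries, against 15, 4 and 8 counts in WT libraries (log2 fold change 0.67, SE 0.48, edgeR adjusted p = 0.379). Tcrg-V1 had 8, 13, 14 and 10 counts in KO libraries, against 6, 6 and 8 counts in WT libraries, and was too low to test. Trgj4 had 4, 5, 1 and 2 counts in KO libraries, against 5, 0 and 1 counts in WT libraries. In counts, Trgv2 and Trgj4 overlapped between the groups, and Tcrg-V1 touched at 8 counts in KO replicate 1 and WT replicate 3. Scaled to CPM, Tcrg-V1 was slightly higher in each KO library than in each WT library. As a share of gamma constant counts, Tcrg-C4 held 43.8, 48.2, 45.1 and 43.2% in KO libraries, against 34.3, 22.5 and 26.5% in WT libraries, without overlap. No test was made of this share. The exact binomial 95% interval was 33.0 to 53.7% in the lowest KO library and 27.2 to 42.1% in the highest WT library. Of the gamma V segments known from epithelial T cells, Tcrg-V5 had 2 counts in all KO libraries together and 1 in all WT libraries together. Trdv4 and Trdv5, the delta V segments with the highest counts, had 12 counts each in all KO libraries together, against 17 and 12 counts in all WT libraries together.

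As a share of all segment counts, the gamma locus held 7.94 to 12% in KO libraries and 2.16 to 2.97% in WT libraries. The delta locus held 3.37 to 5.31% in KO libraries and 1.15 to 1.74% in WT libraries. Per 100 Trac counts there were 16.3, 19.4, 21.9 and 25.1 Trdc counts in KO libraries, against 6.36, 3.55 and 5.03 in WT libraries. On the log2 scale with 0.5 counts added to each gene, this ratio was higher in KO libraries by 2.07 (two-sided exact permutation p = 0.0286, the smallest that 35 splits of 7 libraries can give), in 4 of 4 KO libraries. Adjusted over the 5 ratios compared, this exact permutation p was 0.143 and did not pass. Compared per length, Trdc had 0.701 to 1.07 FPKM in KO libraries and 0.625 to 1.43 FPKM in WT libraries, and Trac had 11.7 to 21.9 FPKM in KO libraries and 56.2 to 93.0 FPKM in WT libraries, so that alpha constant RNA exceeded delta constant RNA in each library.

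Set against Cd3e, Trac and Trbc2 did not differ detectably between the groups. Cd3e, an invariant chain of the receptor complex, averaged 11.3 ± 5.61 CPM in KO libraries and 45.6 ± 9.26 CPM in WT libraries (SD, n = 4 and 3). There were 1.16, 1.77, 1.35 and 2.01 Trac counts per Cd3e count in KO libraries, against 1.68, 1.38 and 1.51 in WT libraries. The log2 ratio differed by 0.01 between the groups (two-sided exact permutation p = 0.971, adjusted p = 0.971), where the SD within the KO group was 0.36. Trbc2 to Cd3e differed by 0.03 (exact permutation p = 0.914, adjusted p = 0.971) and Trac to Trbc2 by -0.02 (exact permutation p = 0.886, adjusted p = 0.971). These p-values do not show that the ratios were equal, and the spread between libraries bounds what could be seen.
With libraries scaled to the summed counts of Cd3d, Cd3e and Cd3g, the median log2 fold change of all genes moved to 2.12, and 93.2% of genes were higher and 0.095% lower. On that scale 0 of the 34 segments were lower (0 also at an unadjusted p under 0.05) and 7 were higher, namely Trdc, Tcrg-C1, Tcrg-C2, Tcrg-C4, Trgv2, Trbj1-1 and Trbj1-5. Trac was at -0.03, Trbc2 at -0.03 and Trbc1 at 0.31 (edgeR adjusted p = 0.522). Relative to the all-gene median of 2.12 on that scale, Trdc at 2.03 stood near it and Trac far below it.

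Genes that act with the receptor are given by counts, which stand beside 6.83% of all genes tested that were lower and 8.71% that were higher. All 4 genes of the CD3 complex fell, with a median log2 fold change of -1.97, as did 7 of 8 coreceptors and co-stimulatory molecules, among them Cd4 at 24.3 ± 5.99 CPM in KO libraries and 78.3 ± 17.99 CPM in WT libraries (log2 fold change -1.69, edgeR adjusted p = 0.00267). Cd8a, expressed also outside T cells, was the coreceptor that did not pass (log2 fold change -0.66, edgeR adjusted p = 0.22). Of the kinases and adaptors next to the receptor, 8 of 10 fell, including Zap70, which binds the phosphorylated CD3 chains (log2 fold change -1.64, edgeR adjusted p = 0.00279), and Themis (-1.94, edgeR adjusted p = 0.00226). The transcription factors Lef1 and Bcl11b, which act in T cell development, were among the 5 of 8 lineage factors that fell, with log2 fold changes of -2.08 and -2.09.
Of 10 tested genes that assemble receptor genes, 1 fell, the ligase gene Lig4 (log2 fold change -0.79, edgeR adjusted p = 0.0163), and the median of the 10 was -0.20. That count is near the 6.83% of all genes that were lower. The recombinase genes Rag1 and Rag2 and the pre-receptor gene Ptcra, which mark developing lymphocytes, were too low to test, at 0.197, 0.0982 and 0.0278 CPM in KO libraries and 0.803, 0.158 and 0.0387 CPM in WT libraries. Of 8 gamma delta and innate-like T cell genes tested, 2 fell, Zbtb16 (log2 fold change -1.67, edgeR adjusted p = 0.0294) and Maf (-0.54, edgeR adjusted p = 0.0381). The groups overlapped for Zbtb16, at 5.20 CPM in KO replicate 4 and 4.86 CPM in WT replicate 3. Sox13, a factor of gamma delta T cells, was at 0.69 (edgeR adjusted p = 0.287).

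Markers of other cell types were counted against the same shares of all genes, 6.83% lower and 8.71% higher. The summed level of 5 erythroid genes was 414 to 1004 CPM in KO libraries and 44.9 to 87.8 CPM in WT libraries, and 5 of 5 rose, with a median log2 fold change of 3.604. For 5 B cell genes the sum was 977 to 2412 CPM in KO libraries and 3002 to 4125 CPM in WT libraries. In edgeR 0 of these 5 passed, and the median was -0.91. At an unadjusted p under 0.05, 5 of 5 were lower, but the shares of all genes given above are at an adjusted p. Among natural killer cell genes, which share receptors with innate-like T cells, 1 of 5 fell, Klrb1c, and the sum was 68.2 to 110 CPM in KO libraries and 86.2 to 154 CPM in WT libraries. Of the neutrophil and monocyte genes 3 of 5 fell, S100a8, S100a9 and Ngp, while Lyz2 and Csf1r did not pass, with log2 fold changes of 0.53 and 0.43. For this list 3 genes were lower and 1 higher at an unadjusted p under 0.05, again with no share of all genes at that threshold. No gene of these lists was at 0 in all libraries. The part of such differences in cell content in the receptor segment values was not tested.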

How the data were processed

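RNA from spleen cells labelled sorted Tfh cells was sequenced in 4 KO and 3 WT libraries. Per the labels' protocols, libraries were made from total RNA with an NEBNext Ultra kit. The deposited table gives, per the file headers, a raw read count and an FPKM value per gene and library. Per the submitters' processing notes, coordinates are on GRCm38 (mm10). No aligner, counter or strand setting is given in the sources used here. The deposited log2 fold change and p-value of the authors' own comparison were not used.

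Counts were fitted with edgeR 4.0.16 in R 4.3.3 (TMM, filterByExpr, robust quasi-likelihood test, all 7 libraries, genotype as the only term, Benjamini-Hochberg over 15795 genes). CPM are counts on the TMM-scaled library size. The deposited FPKM values were used to compare genes per length. For single ratios, an exact permutation test (two-sided) over 35 splits was used. Class sums and usage shares were described without a test. Binomial intervals (Clopper-Pearson, 95%) and the 3-count limit cover counting error only. The edgeR step was tested on simulated data. All 226 segments had the same coordinates in GENCODE M21, the source of the sequences. Exons of 9 segments overlap another gene. Alternatives were DESeq2 1.42.0, limma-voom (limma 3.58.1), other scalings and filters, a replicate block and leaving out each library.

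The segments, the lists of other genes and the rule for named genes were chosen with earlier results of these data known. The rule named every C and D segment, the 5 Trav, Traj, Trbv and Trbj segments and the 3 Trg and Trd V and J segments with the highest mean CPM, up to 10 called segments by p, and those of invariant receptors. Libraries of the same group differed by more than sampling noise (chi-square per degree of freedom of 24.9 or more), so none was counted as a duplicate. Replicates are biological per the labels, with no animal named.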

Additional observations from a re-analysis of the deposited data

Results flagged for a closer look

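In 123 values looked at in the KO group, 3 had a library whose gap to the nearest other exceeded Dixon's 95% critical value for 4 samples, and chance alone flags about 1 in 20 groups. Traj15 was at 0.333 CPM in KO replicate 3 (6 counts) and between 0 and 0.0556 CPM in the other KO libraries. Trdv2-2 was at 0.059 CPM in KO replicate 1 and between 0.0556 and 0.0559 CPM in the others, each from 1 count. The inverse Simpson index of Trbv usage was 11.4 in KO replicate 3 and between 12.9 and 13.1 in the other KO libraries, and Trbv13-2 held 20% of Trbv counts in that library.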

How the results depend on the processing

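The count of 18 segments lower in KO libraries was 0 with libraries scaled to CD3 genes (0.095% of all genes) and 33 with every gene with a count tested (3.79% of all genes). It was 28 of the 71 segments that DESeq2 gave an adjusted p. It was 7 to 17 when a library was left out, lowest without WT replicate 1 (2.96% of all genes). No share of all genes is given for DESeq2, limma-voom, the replicate block or the other libraries left out. The count of 0 higher was 7 with CD3 scaling (93.2% of all genes) and 0 to 1 when a library was left out. A replicate block, in which KO replicate 4 stands alone, gave 15 lower and 0 higher. The correlations of deviations between libraries of the same number were -0.048, 0.025 and 0.158, and those of the other pairs ran from -0.273 to 0.323. With so few libraries these values cannot tell whether libraries of the same number share more than that number. With CD3 scaling the log2 fold change turned to 0.31 for Trbc1, 1.34 for Trbd1, 1.07 for Trbj1-3, 0.76 for Trbj1-4, 1.31 for Trbj1-5, 0.51 for Trbj1-6, 0.55 for Trbv1, 0.0376 for Trbv3, 0.038 for Trbv13-1, 0.29 for Trbv13-2, 2.03 for Trdc, 1.88 for Tcrg-C1 and 1.65 for Tcrg-C2, a scaling that by construction sets CD3 genes to no change. Without WT replicate 1 it was 0.26 for Trbd1, 0.36 for Trdc, 0.0073 for Tcrg-C1 and 0.0096 for Tcrg-C2, while their lowest values with a library left out were -1.38, -0.34, -0.33 and -0.77 in the same order. With the block it was 0.0139 for Trdc. When a library was left out, the log2 ratio of sums ranged from -0.0732 to 0.55 for gamma and from -0.52 to 0.15 for delta, highest without WT replicate 1. The difference in the log2 ratio of Trac to Cd3e ranged from -0.12 to 0.15 and was -0.0502 against the sum of Cd3d, Cd3e and Cd3g. That of Trbc2 to Cd3e ranged from -0.11 to 0.21 and was -0.0329 against that sum, and that of Trac to Trbc2 ranged from -0.14 to 0.0757. For Trdc to Trac it ranged from 1.85 to 2.27, each at the smallest p such a split allows (0.1 or 0.0667). The cause of these changes was not tested. Over the fold changes of named segments, 309 alternatives kept direction and side of the threshold, 17 lost and 7 gained significance and 18 turned sign. Depth limits most single segments: 192 of 226 were too low to test.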
